A study of Mus musculus with 8 samples.

Results

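The genes described here are 40 mouse genes of fatty acid uptake and oxidation together with targets of the PPAR nuclear receptors. They were picked by symbol from a deposited table of 49671 genes, and all 40 reached a value of at least 1 in all 8 libraries. By role, 8 take up, bind or activate fatty acids, 8 belong to the carnitine shuttle and its control by malonyl-CoA, and 11 are enzymes of mitochondrial beta oxidation. A further 5 are peroxisomal or auxiliary oxidation enzymes, 3 form the electron transfer flavoprotein chain, 3 are acyl-CoA thioesterases and 2 are other PPAR targets.

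Male C57BL/6N mice were 8 weeks old when the diets started. One diet was a low fat diet (SFA), and in the other (SFA-EAA) free essential amino acids stood in for 93.5% of the casein. Transverse aortic constriction (TAC), a banding of the aorta that loads the left ventricle with pressure, or a sham operation followed, and left ventricular RNA was taken 4 weeks later. The groups were TAC on SFA-EAA, sham on SFA-EAA, TAC on SFA and sham on SFA, with 2 libraries each. The labels name no genetic change, and all 4 groups shared the strain and sex. Whether the pair of libraries in a group stands for different mice is not stated in the labels, so p-values measure only the spread between these samples, which may be technical.

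Heart muscle takes most of its energy from long-chain fatty acids. These are taken up at the cell surface, activated to acyl-CoA, carried into mitochondria as carnitine esters and shortened by repeated cycles of beta oxidation, which pass electrons to the respiratory chain through the electron transfer flavoprotein. The nuclear receptor PPARα, paired with a retinoid X receptor, is known to drive many of these genes in heart, and a loss of their expression is a known feature of the pressure-loaded heart.

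The deposited normalized values summed to between 5136441 and 6298743 per library. Mitochondrial genome transcripts held 33.6% and 39.5% of them in TAC SFA-EAA hearts, 37.3% and 34.7% in sham SFA-EAA hearts, 27.7% and 22.1% in TAC SFA hearts and 29.2% and 30.3% in sham SFA hearts. Cardiomyocyte markers summed to between 303840 and 406533. Myl7, an atrial myosin light chain, ranged between 1.28 and 43.0 in 6 libraries and stood at 322 in TAC SFA replicate 2 and at 621 in sham SFA replicate 1. Across 11387 genes, GC content was correlated in each library with the deviation of a gene's log2 value from its own mean over the 8 libraries. The correlation was positive in TAC SFA-EAA replicate 1 and all 4 SFA libraries (Spearman's rho between 0.32 and 0.50). It was negative in the other 3 SFA-EAA libraries, at -0.72 in TAC SFA-EAA replicate 2 and at -0.60 and -0.41 in the sham SFA-EAA libraries. TAC SFA-EAA replicate 1 was closest over all tested genes to sham SFA replicate 2 (Spearman's rho 0.98). GC dependence thus moved largely with diet, and counts and medians corrected for it are given beside the diet results.

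The 40 genes together held 2.30% and 2.37% of all values in TAC SFA-EAA hearts and 2.70% and 2.83% in sham SFA-EAA hearts. They held 2.04% and 1.93% in TAC SFA hearts and 2.495% and 2.40% in sham SFA hearts. Both TAC groups thus lay below the sham group of the same diet without overlap. With transcripts of the mitochondrial genome left out of the total, the shares were 3.46% and 3.92% in TAC SFA-EAA hearts, against 4.31% and 4.33% in sham SFA-EAA hearts. On the same scale they were 2.82% and 2.48% in TAC SFA hearts, against 3.52% and 3.45% in sham SFA hearts.

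**Figure D1:**
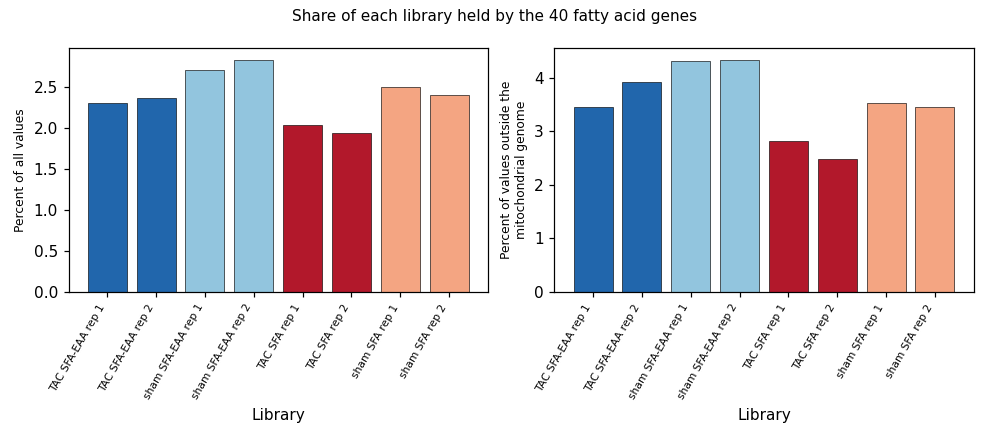
Share of each library's deposited values held by the 40 genes, in percent of all values (left) and of values outside the mitochondrial genome (right); each bar is 1 library. The TAC SFA libraries are the lowest, at 2.04% and 1.93% of all values, and the sham SFA-EAA libraries the highest, at 2.70% and 2.83%.

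Levels differed widely among the members. On the scale of mean value per kilobase of gene model over the 8 libraries, Fabp3, the heart fatty acid binding protein, was highest at 16053 per kb. Lpl, the lipase that frees fatty acids from circulating triglyceride, followed at 3349 per kb, with the peroxisomal and mitochondrial isomerase Ech1 at 3108, the fatty acid transporter Cd36 at 3082 and the thiolase Acaa2 at 3047 per kb. Ech1, Cd36 and Acaa2 lay closer to each other than the group means of each gene did. The lowest were Angptl4, a secreted inhibitor of lipoprotein lipase, at 6.38 per kb, the acyl-CoA synthetase Acsl3 at 8.44 and the muscle carnitine palmitoyltransferase Cpt1b at 12.7 per kb. Cpt1a, the liver-type isoform, stood at 47.4 per kb, above Cpt1b. The whole of the Cpt1b gene, 9459 bases, overlaps the same-strand gene Chkb, which averaged 147 per library against 42.8 for Cpt1b. The sources used here do not say how shared reads were assigned, so the Cpt1b values are uncertain.

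**Figure D2:**
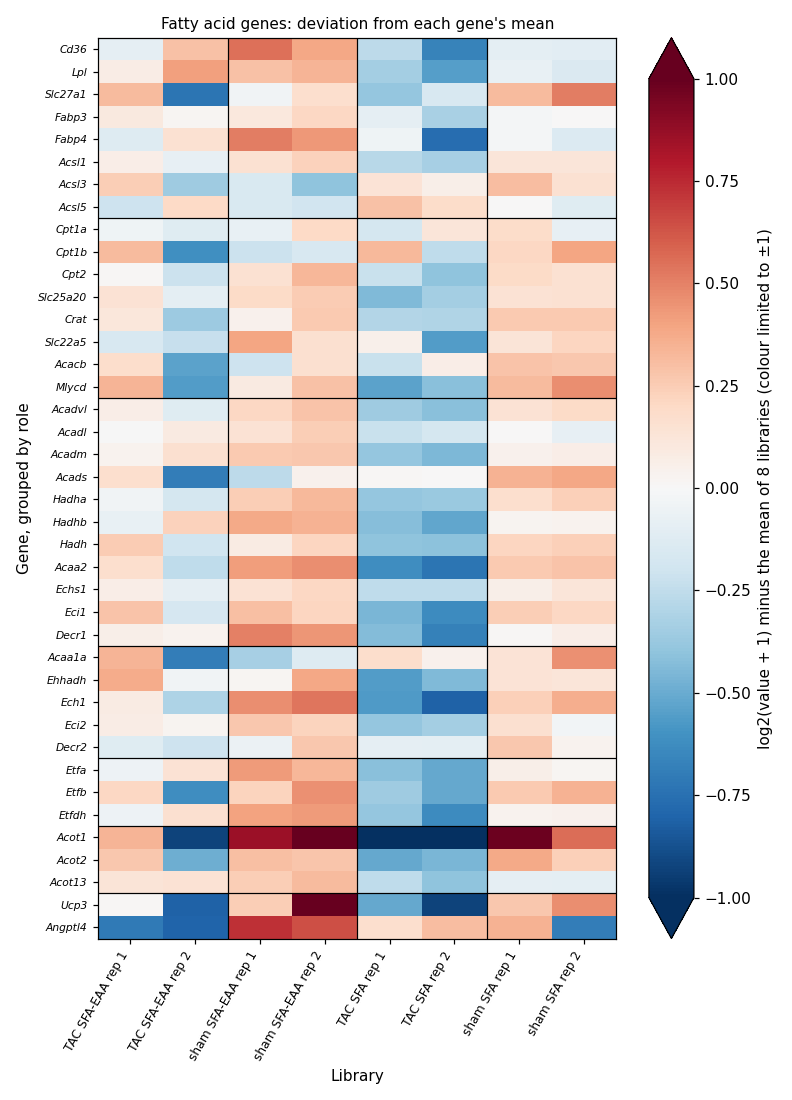
Deviation of each gene's log2(value + 1) from its own mean over the 8 libraries; columns are libraries, rows are the 40 genes in blocks by role, and the colour scale stops at 1 in either direction. The TAC SFA columns are below the mean for most rows, and Acot1 has the widest range, between 7.60 and 68.9.

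The first comparison asked what pressure overload did on the SFA diet. In TAC SFA hearts 38 of the 40 genes were lower than in sham SFA hearts, and the median log2 fold change was -0.48, against 0.01 over all 16432 genes tested. Limma called 4 of them lower at an adjusted p under 0.05, namely Acot1, Ech1, Acaa2 and Eci1, and none higher, against 0.414% of all genes tested called lower (68 genes) and 0.834% called higher. At an unadjusted p under 0.05 there were 24 members and 2197 of all genes. Both TAC libraries lay below both sham libraries for 34 genes, against 23.1% of all genes, and above both for 1 gene, Acsl5, against 24.3%.

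Acot1, a cytosolic thioesterase that frees fatty acids from acyl-CoA and is a known PPARα target, had the widest difference. Its normalized values were 7.60 and 8.75 in TAC SFA hearts, against 53.0 and 39.4 in sham SFA hearts, so the groups did not overlap. The log2 fold change was -2.35 ± 0.42 (SE), a level 5.104-fold lower, with an adjusted p of 0.0388. Its neighbour Acot2, the mitochondrial thioesterase, averaged 148 ± 3.97 in TAC SFA hearts and 257 ± 17.4 in sham SFA hearts (SD, n = 2 libraries each), a log2 fold change of -0.79 with an adjusted p of 0.14. The longest coding transcripts of the pair were identical at 1268 of 1362 aligned positions (93.1%), so reads could be shared between them and both values are uncertain. The bases before their start sites are shown because the genes lie side by side on chromosome 12, share transcript sequence and were both lower. The windows, aligned end to end with gaps allowed, were identical at 148 of 295 aligned positions (50.2%). The identity of unrelated windows was not computed, so this value alone does not show a likeness.
Acot1, chr12:84009252-84009501, GRCm38.p6, + strand, RefSeq: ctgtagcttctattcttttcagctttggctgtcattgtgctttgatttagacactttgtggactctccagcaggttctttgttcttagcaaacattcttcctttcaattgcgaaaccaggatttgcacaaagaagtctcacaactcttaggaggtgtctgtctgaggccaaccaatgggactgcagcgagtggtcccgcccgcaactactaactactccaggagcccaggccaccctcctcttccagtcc
Acot2, chr12:83987611-83987860, GRCm38.p6, + strand, RefSeq: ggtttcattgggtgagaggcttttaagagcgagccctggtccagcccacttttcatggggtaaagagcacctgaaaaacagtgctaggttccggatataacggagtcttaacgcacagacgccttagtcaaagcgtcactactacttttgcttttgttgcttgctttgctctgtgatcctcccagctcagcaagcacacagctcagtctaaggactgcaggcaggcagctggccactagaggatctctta
Neither window holds the letters AGGTCA on either strand, the hexamer that nuclear receptors of the PPAR class bind in pairs. That hexamer occurs in 4607 of 32851 promoter windows of 250 bases (14.0%) and in 6 of the 35 windows of the 32 matched members (17.1%). The third thioesterase, Acot13, averaged 1104 ± 79.0 in TAC SFA hearts and 1295 ± 7.90 in sham SFA hearts (SD, n = 2 libraries each), with a log2 fold change of -0.23 and an adjusted p of 0.388.

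All 11 mitochondrial beta oxidation enzymes were lower in TAC SFA hearts by a median of -0.56 on the log2 scale, and 2 of them, Acaa2 and Eci1, passed the test. Acaa2, the thiolase that ends a turn of the spiral on medium and short chains, had 2873 and 2668 in TAC SFA hearts, against 5295 and 5398 in sham SFA hearts. Its log2 fold change was -0.95 ± 0.15 (SE), a level 1.93-fold lower, with an adjusted p of 0.0209. Eci1, an isomerase that prepares unsaturated chains for the spiral, had 847 and 753 in TAC SFA hearts, against 1384 and 1347 in sham SFA hearts, with a log2 fold change of -0.77 ± 0.15 (SE) and an adjusted p of 0.04997. Decr1, a reductase for unsaturated chains, had 1954 and 1652 in TAC SFA hearts, against 2661 and 2764 in sham SFA hearts, and missed the threshold at an adjusted p of 0.0503 (log2 fold change -0.59). Eci1 and Decr1 thus lay just inside and just outside the threshold.

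The trifunctional protein, which carries out the later steps on long chains, is encoded by Hadha and Hadhb, transcribed away from each other on chromosome 5. Hadha had 5455 and 5517 in TAC SFA hearts, against 8025 and 8430 in sham SFA hearts (log2 fold change -0.58, adjusted p = 0.0558). Hadhb had 5420 and 5094 in TAC SFA hearts, against 7436 and 7451 in sham SFA hearts (log2 fold change -0.50, adjusted p = 0.123). Both subunits were lower without overlap of the groups, and neither passed the test. The 85 bases between the 2 genes, as the deposited table places them, are shown because both genes were lower.
Between Hadha and Hadhb, chr5:30155163-30155247, GRCm38.p6, + strand, RefSeq: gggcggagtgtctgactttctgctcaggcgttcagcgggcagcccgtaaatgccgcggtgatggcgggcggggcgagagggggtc
Acadvl, the very long chain acyl-CoA dehydrogenase, had 5008 and 4788 in TAC SFA hearts, against 7095 and 7319 in sham SFA hearts (log2 fold change -0.56, adjusted p = 0.0677). Of the other enzymes, Hadh, the short chain hydroxyacyl dehydrogenase, had a log2 fold change of -0.63, and the dehydrogenases Acadm, Acads and Acadl had -0.48, -0.36 and -0.16. Echs1, the enoyl-CoA hydratase, stood at -0.34. These 5 did not pass the test.

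Of the 5 peroxisomal and auxiliary enzymes only Ech1 passed the test, and all 5 had a negative log2 fold change. Ech1, which shifts double bonds so that unsaturated fatty acids can be oxidized, had 4558 and 3856 in TAC SFA hearts, against 7985 and 8695 in sham SFA hearts. The log2 fold change was -0.99 ± 0.16 (SE), a level 1.99-fold lower, with an adjusted p of 0.0230. Ehhadh, the peroxisomal bifunctional enzyme, averaged 44.5 ± 2.60 in TAC SFA hearts and 69.2 ± 0.644 in sham SFA hearts (SD, n = 2 libraries each; log2 fold change -0.63, adjusted p = 0.255). The isomerase Eci2 had a log2 fold change of -0.43, Decr2 of -0.25 and the thiolase Acaa1a of -0.19.

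The electron transfer flavoprotein passes electrons from the acyl-CoA dehydrogenases to ubiquinone. Its subunits Etfa and Etfb and the dehydrogenase Etfdh were lower in TAC SFA hearts without overlap, and none passed the test. Etfa had 2733 and 2561 in TAC SFA hearts, against 3791 and 3684 in sham SFA hearts (log2 fold change -0.50, adjusted p = 0.0839). Etfdh had 3008 and 2537 in TAC SFA hearts, against 4021 and 4040 in sham SFA hearts (log2 fold change -0.55, adjusted p = 0.0853). Etfb had a log2 fold change of -0.74 (adjusted p = 0.188).

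The window before Etfa is shown because it is the only one, of the members called in any comparison and matched to a promoter window, with a near match to the PPAR element. The pattern AGGTCANAGGTCA, a direct repeat with 1 base between, was searched on both strands; its capitals mark a match in 10 of 12 letters, 77 to 65 bases before the start.
Etfa, chr9:55512244-55512493, GRCm38.p6, - strand, RefSeq: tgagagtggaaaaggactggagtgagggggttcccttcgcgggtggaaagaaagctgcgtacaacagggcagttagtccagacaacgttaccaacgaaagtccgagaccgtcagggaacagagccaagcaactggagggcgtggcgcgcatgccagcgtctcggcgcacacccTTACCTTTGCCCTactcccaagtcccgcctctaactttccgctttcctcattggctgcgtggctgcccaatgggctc
The exact repeat occurs in 11 of 32851 windows (0.0335%) and in none of the 35 member windows. With up to 2 of 12 letters allowed to differ, a limit set after the matches were seen, it occurs in 1063 windows (3.24%) and in 4 of the 35 member windows (11.4%), those of Cd36, Echs1, Etfa and Ucp3. A match describes letters only.

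Among the 8 genes of the carnitine shuttle and its control, all had a negative log2 fold change in TAC SFA hearts, with a median of -0.45, and none passed the test. Slc25a20, the carnitine acylcarnitine translocase, had 646 and 692 in TAC SFA hearts, against 968 and 974 in sham SFA hearts (log2 fold change -0.54, adjusted p = 0.0685). Cpt2, which returns the acyl group to CoA inside the mitochondrion, averaged 976 ± 86.4 in TAC SFA hearts and 1361 ± 25.0 in sham SFA hearts (SD, n = 2 libraries each; log2 fold change -0.48, adjusted p = 0.121). Mlycd, which breaks down malonyl-CoA, averaged 402 ± 22.2 in TAC SFA hearts and 734 ± 54.7 in sham SFA hearts (SD, n = 2 libraries each; log2 fold change -0.87, adjusted p = 0.145). Crat, carnitine acetyltransferase, had a log2 fold change of -0.56, the carnitine transporter Slc22a5 of -0.43 and Acacb, which makes malonyl-CoA, of -0.36. Cpt1a, at -0.08, overlapped between the groups, as did Cpt1b, at -0.27.

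Of the 8 uptake, binding and activation genes, 7 had a negative log2 fold change and none passed the test. Acsl1, the main acyl-CoA synthetase of the heart, averaged 3544 ± 86.0 in TAC SFA hearts and 4758 ± 9.90 in sham SFA hearts (SD, n = 2 libraries each; log2 fold change -0.43, adjusted p = 0.121). The transporter Slc27a1 had a log2 fold change of -0.69 (adjusted p = 0.329), and Cd36 had -0.37 (adjusted p = 0.438). Lpl stood at -0.34, Fabp4 at -0.32, Fabp3 at -0.20, Acsl3 at -0.13 and Acsl5 at 0.30. Fabp4 and Cd36 are also made by capillary endothelium and fat cells. The 10 endothelial markers summed to 4561 and 4377 in TAC SFA hearts, against 4500 and 4833 in sham SFA hearts, and none was called. The 8 adipocyte markers summed to 21.8 and 42.3 in TAC SFA hearts, against 79.8 and 14.1 in sham SFA hearts; the defining marker Adipoq lay between 0 and 16.1 and Lep was at 0 in 7 of the 8 libraries. In bulk RNA, fewer cells of a type and less RNA per cell cannot be told apart.

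Ucp3, a mitochondrial uncoupling protein and PPAR target, had 73.9 and 55.4 in TAC SFA hearts, against 128 and 147 in sham SFA hearts (log2 fold change -1.09, adjusted p = 0.211). Its groups did not overlap. Angptl4 had 21.8 and 24.1 in TAC SFA hearts, against 24.9 and 11.6 in sham SFA hearts, so the groups overlapped (log2 fold change 0.40, adjusted p = 0.736). The window before Ucp3 is shown because it holds the hexamer as well as a near match to the repeat: capitals mark the hexamer starting 149 bases before the start, and the repeat-like stretch, matching in 10 of 12 letters, 51 to 39 bases before it, which holds a second hexamer.
Ucp3, chr7:100472741-100472990, GRCm38.p6, + strand, RefSeq: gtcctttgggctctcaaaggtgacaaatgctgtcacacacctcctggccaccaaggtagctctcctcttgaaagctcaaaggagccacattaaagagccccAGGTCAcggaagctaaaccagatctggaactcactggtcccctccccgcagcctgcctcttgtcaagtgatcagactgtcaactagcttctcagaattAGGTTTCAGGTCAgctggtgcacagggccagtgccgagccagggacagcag

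**Figure D3:**
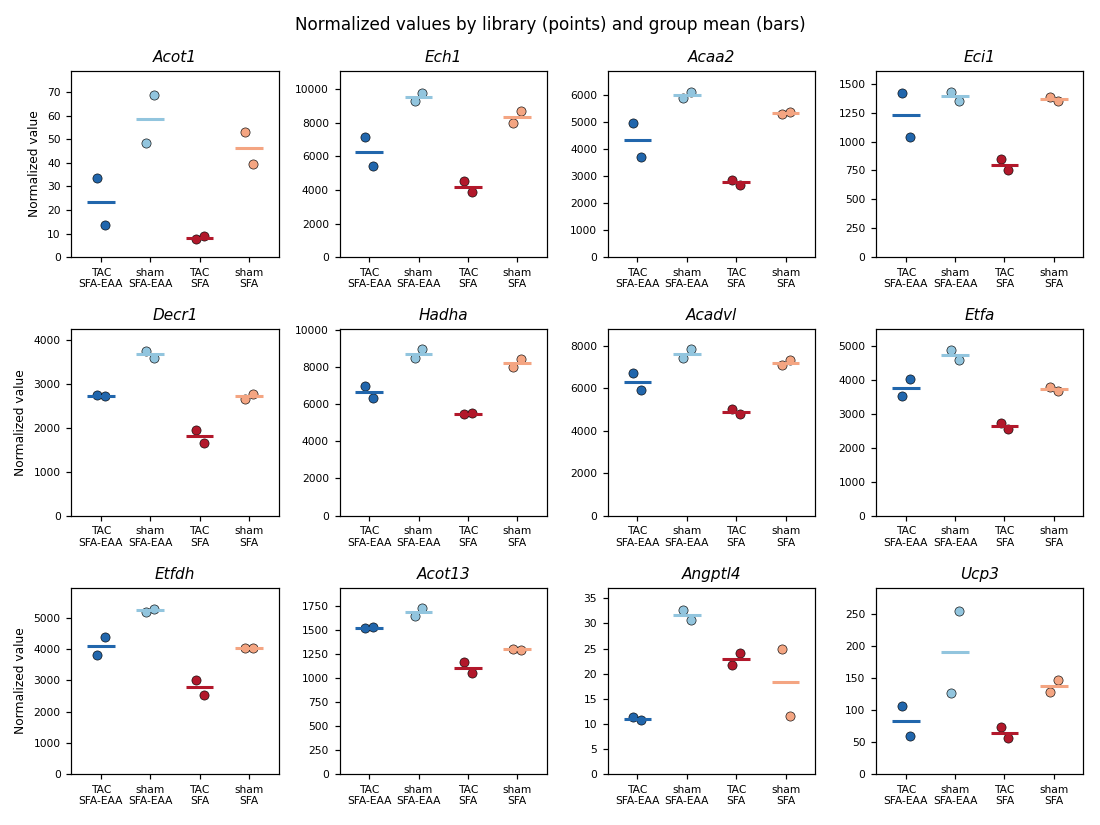
Normalized values of 12 genes; points are libraries, bars are group means and the vertical axis starts at 0. For Acot1 the TAC SFA libraries lie at 7.60 and 8.75 and the sham SFA libraries at 53.0 and 39.4; for Angptl4 the TAC SFA-EAA libraries lie at 11.4 and 10.7 and the sham SFA-EAA libraries at 32.6 and 30.7.

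The number of calls for TAC on the SFA diet moved with the values and libraries in the fit. With GC correction 23 of the 40 genes were called lower, among them the same 4, against 2.67% of all genes. With TAC SFA-EAA replicate 1 or replicate 2 left out of the fit 18 were called, with 2.34% and 2.33% of all genes called, and with any of the other 6 libraries left out, or with only the 4 libraries compared in the fit, 0 were. In each of those fits that gave 0, fewer of all genes were called than with all 8 libraries. The fit to the 4 libraries called 0% of all genes. Fibroblast markers moved with TAC under SFA, and 3 of 10 were called higher. The 10 summed to 15317 and 24019 in TAC SFA hearts, against 13521 and 11942 in sham SFA hearts. Cardiomyocyte markers summed to 335501 and 361243 in TAC SFA hearts, against 403845 and 406533 in sham SFA hearts, and 0 of 10 were called. The part of either in these results was not tested.

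On the SFA-EAA diet TAC hearts had lower values for 36 of the 40 genes; the median log2 fold change was -0.27, against 0 over all genes tested. None was called lower or higher by limma, against 0% of all genes called lower and 0.0122% called higher (2 genes); at an unadjusted p under 0.05 there were 12 members and 1408 of all genes. Both TAC libraries lay below both sham libraries for 26 genes, against 18% of all genes. For 24 genes they did so on both diets, against 6.41% of all genes. The median was -0.36 without TAC SFA-EAA replicate 1 and -0.16 without TAC SFA-EAA replicate 2. It was -0.30 without sham SFA-EAA replicate 1 and -0.18 without sham SFA-EAA replicate 2. With GC correction Ech1 alone was called, against 0.0609% of all genes called lower.

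Ech1 had 7140 and 5443 in TAC SFA-EAA hearts, against 9306 and 9802 in sham SFA-EAA hearts (log2 fold change -0.62, adjusted p = 0.368, and 0.0392 with GC correction). Acaa2 had 4967 and 3704 in TAC SFA-EAA hearts, against 5910 and 6111 in sham SFA-EAA hearts (log2 fold change -0.49, adjusted p = 0.43). For both the groups did not overlap, and the TAC libraries differed from each other. Acot1 had 33.7 and 13.5 in TAC SFA-EAA hearts, against 48.6 and 68.9 in sham SFA-EAA hearts (log2 fold change -1.40). Angptl4 had 11.4 and 10.7 in TAC SFA-EAA hearts, against 32.6 and 30.7 in sham SFA-EAA hearts (log2 fold change -1.44, adjusted p = 0.386). These groups did not overlap either, and neither gene was called. Ucp3 had 107 and 60.03 in TAC SFA-EAA hearts, against 126 and 254 in sham SFA-EAA hearts (log2 fold change -1.15), and Hadha stood at -0.39, Decr1 at -0.42.

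**Figure D4:**
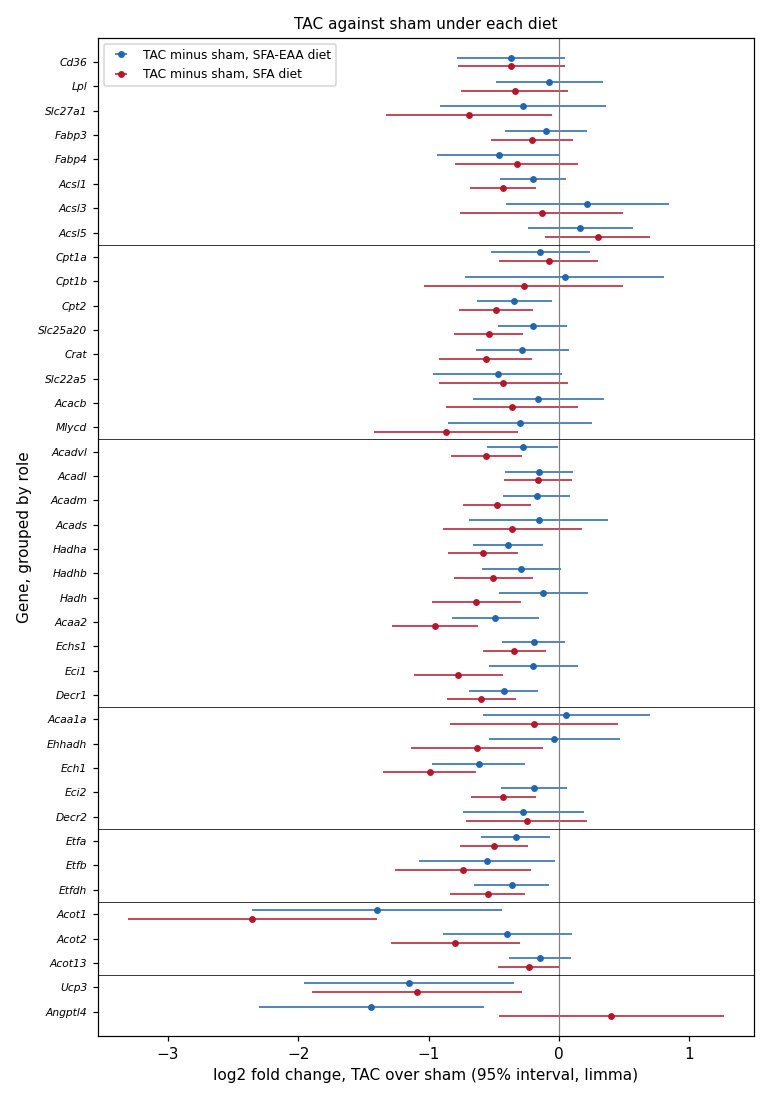
Log2 fold change of TAC over sham for the 40 genes with limma's 95% interval, for the SFA-EAA diet (blue) and the SFA diet (red); rows are grouped by role. The interval lies below 0 for 12 genes under SFA-EAA and 24 under SFA.

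Averaged over both diets, which uses the same libraries again, TAC hearts were lower for 38 of 40 genes and limma called 8 lower and none higher, against 0.73% of all genes called lower and 1.38% called higher. They were Ech1 (log2 fold change -0.80, adjusted p = 0.0104), Acaa2 (-0.72, 0.0121), Acot1 (-1.87, 0.0187), Decr1 (-0.51, 0.0199), Hadha (-0.49, 0.0258), Etfa (-0.42, 0.0399), Etfdh (-0.45, 0.0412) and Acadvl (-0.42, 0.0448). These include 4 of the 11 beta oxidation enzymes and 2 of the 3 flavoprotein chain genes, while none of the 8 uptake genes or the 8 shuttle genes was called. With GC correction 25 genes were called lower, the same 8 among them, against 3.23% of all genes. Leaving out TAC SFA-EAA replicate 1 gave 21 calls (3.43% of all genes called), leaving out TAC SFA-EAA replicate 2 gave 11 (2.4%), leaving out TAC SFA replicate 1 gave 2 (0.791%), and leaving out any of the other 5 gave 0. In each of the fits that gave 0, fewer of all genes were called than with all 8 libraries. Macrophage markers were higher in TAC hearts for 10 of 10 over both diets, with 2 called. They summed to 1837 and 2312 in TAC SFA-EAA hearts, against 1256 and 1359 in sham SFA-EAA hearts, and to 2332 and 2020 in TAC SFA hearts, against 1803 and 1345 in sham SFA hearts. Their part in these results was not tested.

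The difference between the diets in the TAC effect was tested directly. The interaction was positive for 32 of 40 genes, that is, the TAC log2 fold change was higher under SFA-EAA than under SFA, with a median of 0.21; limma called none of the 40, against 0% of all genes, and 3 had an unadjusted p under 0.05, against 902 of all genes. Those 3 were Angptl4 (-1.84, adjusted p = 0.851), Eci1 (0.58, adjusted p = 0.878) and Hadh (0.52, adjusted p = 0.878). Eci1 had 1420 and 1039 in TAC SFA-EAA hearts, against 1432 and 1353 in sham SFA-EAA hearts, and 847 and 753 in TAC SFA hearts, against 1384 and 1347 in sham SFA hearts. The interaction's 95% interval for Acot1 was between -0.40 and 2.31. Without TAC SFA-EAA replicate 1 the median interaction was 0.08, and without TAC SFA-EAA replicate 2 there were 17 members and 2465 of all genes at an unadjusted p under 0.05. The larger number of calls under SFA is thus not shown to differ between the diets.

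The diet comparison asked how SFA-EAA hearts differed from SFA hearts. In sham hearts 28 of 40 genes were higher on SFA-EAA, with a median of 0.08, and limma called none higher or lower, against 0% of all genes; 8 members and 2437 of all genes had an unadjusted p under 0.05. Both SFA-EAA libraries lay above both SFA libraries for 20 genes and below both for 9, against 27.6% of all genes in each direction. In TAC hearts 31 of 40 were higher on SFA-EAA, with a median of 0.34 against -0.03 over all genes, and limma called none, against 0.0122% of all genes called higher and 0.0365% called lower; 20 members and 2476 of all genes had an unadjusted p under 0.05. The groups did not overlap for 23 genes higher and 2 lower, against 21.7% and 21.1% of all genes. With GC correction 13 were called higher in TAC hearts, against 1.08% of all genes, and the median was 0.40, against -0.02 over all genes. Leaving out TAC SFA-EAA replicate 1 gave 10 called in either direction in TAC hearts, with 8.49% of all genes called, and a median of 0.21. In sham hearts GC correction left 0 called, against 0% of all genes, with 34 of 40 higher and a median of 0.19. At an unadjusted p under 0.05 there were then 15 members and 1703 of all genes. The sham median was 0.15 without sham SFA-EAA replicate 1 and 0.05 without sham SFA-EAA replicate 2.

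Averaged over both operations, 30 of 40 genes were higher on SFA-EAA and 4 were called higher, against 0.487% of all genes called higher; none was called lower, against 0.724% of all genes. Decr1 had 2748 and 2710 in TAC SFA-EAA hearts and 3746 and 3582 in sham SFA-EAA hearts, against 1954 and 1652 in TAC SFA hearts and 2661 and 2764 in sham SFA hearts. Its log2 fold change was 0.52 ± 0.08 (SE), with an adjusted p of 0.0423. Acot13, a thioesterase found at mitochondria, had 1513 and 1531 in TAC SFA-EAA hearts and 1642 and 1725 in sham SFA-EAA hearts, against 1160 and 1049 in TAC SFA hearts and 1301 and 1290 in sham SFA hearts (0.42, adjusted p = 0.0472). All 4 SFA-EAA libraries of Acot13 lay above all 4 SFA libraries. The same held for Lpl, Cd36 and Fabp3, which were not called. How many of all genes separated in this way was not counted, so the separation cannot be read as a trait of these genes. The margin was narrow for Cd36, with 10054 in TAC SFA-EAA replicate 1 and 10037 in sham SFA replicate 1. For Fabp3 it lay between 13333 in TAC SFA-EAA replicate 2 and 13208 in sham SFA replicate 2. For Lpl it was wider, between 36124 in TAC SFA-EAA replicate 1 and 32518 in sham SFA replicate 1. Etfa (0.43) and Etfdh (0.47) each had an adjusted p of 0.0494; Etfa averaged 3771 ± 353 in TAC SFA-EAA hearts and 4741 ± 202 in sham SFA-EAA hearts, against 2647 ± 122 in TAC SFA hearts and 3737 ± 75.7 in sham SFA hearts (SD, n = 2 libraries each).

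The GC correction moved the diet values of many genes. With it 15 of the 40 were called higher on SFA-EAA, the same 4 among them, against 1.74% of all genes. The corrected median over the 40 was 0.26, against 0.20 as deposited. Cd36, whose transcript has 38.8% GC, had a diet log2 fold change of 0.57 as deposited and 0.19 corrected, and Mlycd, with 59.99% GC, had 0.08 as deposited and 0.71 corrected. Leaving out TAC SFA-EAA replicate 1 gave 14 called in either direction, with 18.5% of all genes called, and leaving out any of the other 7 libraries gave 0. Calls over all genes were also fewer in each of those 7 fits than with all libraries. Without TAC SFA-EAA replicate 2 the median over the 40 was 0.30, against 0.20 with all libraries. GC dependence of the libraries moved with diet, and its part in these results beyond the correction was not tested. Fibroblast markers were lower on SFA-EAA for 10 of 10 over both operations, with 3 called; they summed to 11048 and 10047 in TAC SFA-EAA hearts and 10542 and 10151 in sham SFA-EAA hearts, against 15317 and 24019 in TAC SFA hearts and 13521 and 11942 in sham SFA hearts. All 5 tested atrial markers were lower on SFA-EAA as well, with a median log2 fold change of -3.40. So were all 6 tested adipocyte markers (-0.87) and all 5 red cell markers (-0.52). Lower values also held for 8 of 10 endothelial markers (-0.25), 7 of 10 macrophage markers (-0.43) and 7 of 10 cardiomyocyte markers (-0.10). The same held for 5 of 8 smooth muscle and pericyte markers (-0.16). No marker of these 6 lists was called. The atrial list summed to 1506 in TAC SFA replicate 2 and 1705 in sham SFA replicate 1. It summed to 140 in TAC SFA replicate 1 and 227 in sham SFA replicate 2, and to between 77.0 and 208 in the SFA-EAA libraries. The part of these markers in the diet results was not tested.

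**Figure D5:**
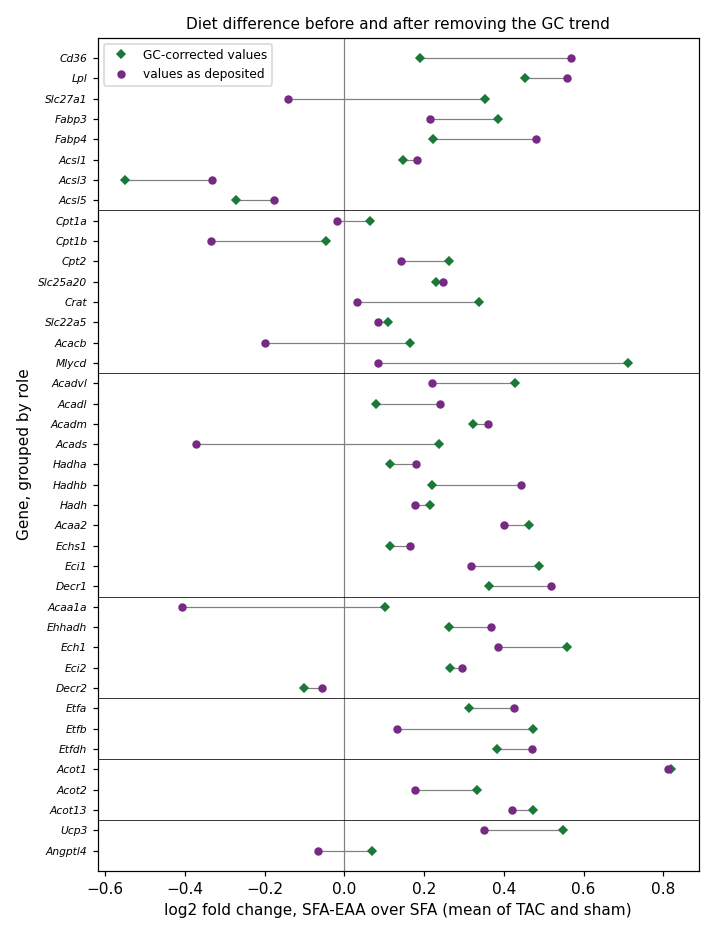
Log2 fold change of SFA-EAA over SFA, averaged over both operations, for the 40 genes: values as deposited (purple circles) and after the GC trend of each library was removed (green diamonds). Cd36 lies at 0.57 and 0.19, Mlycd at 0.08 and 0.71.

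Other genes of the pathway came from lists of 89 genes, of which 83 were tested. In TAC SFA hearts 3 of the 83 were called lower and none higher, against 0.414% of all genes called lower. Fbp2, a muscle fructose bisphosphatase listed among PPAR targets, had 37.9 and 39.9 in TAC SFA hearts, against 114 and 130 in sham SFA hearts (log2 fold change -1.63, adjusted p = 0.0164). Rxrg, a retinoid X receptor, had 229 and 205 in TAC SFA hearts, against 400.1 and 394 in sham SFA hearts (-0.87, adjusted p = 0.0356). Pank1, which starts coenzyme A synthesis, had 157 and 151 in TAC SFA hearts, against 262 and 261 in sham SFA hearts (-0.76, adjusted p = 0.0481). None of the 83 was called on SFA-EAA. Averaged over both diets 6 of the 83 were called lower, against 0.73% of all genes, among them Fbp2, Pank1, Hsd17b10, Slc25a42 and Dbi.

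Of the 16 PPAR and ERR regulators tested in TAC SFA hearts, only Rxrg was called. Ppara, encoding PPARα, had 122 and 114 in TAC SFA hearts, against 153 and 121 in sham SFA hearts (log2 fold change -0.21, adjusted p = 0.79). The coactivator Ppargc1a stood at -0.12 and the receptor Esrra at -0.38, with adjusted p-values of 0.876 and 0.775. Of known PPAR targets outside the 40, Pdk4, which blocks pyruvate use, stood at 0.55, and the lipid droplet proteins Plin2 and Plin5 at -0.33 and -0.61; none of these 3 passed the test under SFA. The median over the 83 genes was -0.16 under SFA, against -0.48 over the 40 members.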

How the data were processed

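Left ventricular RNA was sequenced from 8 libraries, 2 in each of 4 groups. Per the submitters' processing notes, the sources name STAR 2.5, edgeR and the GRCm38 build. Not given in the sources used here are the read counter, the annotation release and the strand setting. The authors deposited 1 table of edgeR-normalized signal per gene; its values are not whole numbers and carry no recoverable read counts, so no count test was run and counting error is unknown. The design planned for normalized values was therefore applied to this signal unit.

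The 40 members and all gene lists were chosen with earlier results of these data known. A gene was kept where 2 or more libraries reached 1, which held for 16432 of 49671 genes, and values were turned into log2(value + 1). A limma trend model (limma 3.58.1, R 4.3.3) with 1 mean per group, its spread shared by the 4 groups, gave 7 comparisons. P-values were adjusted by Benjamini-Hochberg over all 16432 genes within each comparison, with a threshold of 0.05. A fold change on this scale understates the change of low genes. GC content of transcripts was available for 99.77% of the tested genes. In the GC correction, a loess curve (span 0.3) on GC content was removed from each library. It was fitted to each gene's deviation from its mean log2 value over the 8 libraries, on genes with a mean of at least 10.

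The text names every called member, up to 4 members of each role with the smallest p for TAC against sham under SFA, called genes of the pathway lists with up to 3 of each list, and a fixed panel of regulators and PPAR targets, of which 1 gene is not reported here. Members named outside this rule were described for their level, overlap or interval after their values were seen. Other fits changed the pseudocount, the filter, the scaling, the library weights, the block, the libraries in the fit or left out libraries. The model was tested on simulated data. Promoter windows came from RefSeq (GRCm38.p6) and matched 32 of 40 members by symbol; alignments used Biopython 1.88 and figures matplotlib 3.10.9.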

Additional observations from a re-analysis of the deposited data

Results flagged for a closer look

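For 2 genes both libraries of a group moved one way with diet in TAC hearts and the opposite way in sham hearts. How many of all genes did so was not counted. With diet, 21.7% of all genes lay higher without overlap in TAC hearts and 21.1% lower. In sham hearts the share was 27.6% in each direction, so such opposite moves cannot be read as a trait of these genes. In sham hearts the nearest libraries of Hadh differed little, at 3620 against 3630. Hadh, the short chain hydroxyacyl-CoA dehydrogenase, had 3730 and 2718 in TAC SFA-EAA hearts, against 2365 and 2345 in TAC SFA hearts, and 3298 and 3620 in sham SFA-EAA hearts, against 3630 and 3684 in sham SFA hearts. The interaction was 0.5164 on the log2 scale, with a limma adjusted p of 0.878. Angptl4, the inhibitor of lipoprotein lipase, had 11.4 and 10.7 in TAC SFA-EAA hearts, against 21.8 and 24.1 in TAC SFA hearts, and 32.6 and 30.7 in sham SFA-EAA hearts, against 24.9 and 11.6 in sham SFA hearts. Its interaction was -1.8426, with a limma adjusted p of 0.851. Neither difference passed the test over all genes.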

How the results depend on the processing

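Members called were 4 for TAC under SFA, 8 for TAC over both diets and 4 for diet over both operations, and 0 elsewhere. With GC correction they became, in that order, 23, 25 and 15, against 5.43%, 6.72% and 2.85% of all genes called in either direction. It also gave 13 for diet in TAC hearts and 1 for TAC under SFA-EAA, against 2% and 0.28%. Library weights gave 20, 14 and 9, against 4.43%, 2.23% and 4.1%, and 2 for diet in sham hearts, against 3.6%. A mean of at least 10 gave 7, 13 and 8, against 2.72%, 3.82% and 5.31%. No filter gave 0, 0 and 0, against 0.958%, 0.272% and 0%. A pseudocount of 0.25 gave 1 and quantile normalization 0 for diet over both operations, against 0.347% and 0.256% of all genes. A fit to the libraries compared gave 0 for TAC under SFA, against 0%. Leaving out sham SFA replicate 1 and TAC SFA replicate 2 together gave member medians of -0.428, -0.340 and 0.196 in the same order. With all libraries these were -0.479, -0.385 and 0.199. Leaving out 1 library gave 0 to 18, 0 to 21 and 0 to 14, and 0 to 10 for diet in TAC hearts. Correlations of same-numbered deviations between groups lay between -0.1 and 0.013. With 2 libraries a group they cannot show whether the replicate numbers paired the samples. With the replicate block the counts were 1, 3 and 0, against 0.584%, 0.895% and 0% of all genes called. Block with GC correction gave 21, 24 and 12, against 4.49%, 5.51% and 1.95%, and 8 for diet in TAC hearts, against 1.41%. Values that turned sign were sought among called genes, those with the smallest p in a comparison and the fixed panel. For TAC under SFA they were Ppargc1a (between -0.23 and 0.0046 over the fits without 1 library), Angptl4 (between -0.12 and 0.92) and Ppara (between -0.38 and -0.0388, and 0.0063 without sham SFA replicate 1 and TAC SFA replicate 2). Under SFA-EAA they were Esrra (-0.0829 with GC correction, with or without the replicate block, and between -0.77 and 0.85 without 1 library, with -0.18 without sham SFA-EAA replicate 1), Ppara (between -0.40 and 0.33) and Ppargc1a (between -0.68 and 0.0080). None of these was called. Of the 2054 values of this selection over the settings, these 9 turned sign, 1659 kept their direction and side of the threshold, 250 lost a call and 136 gained one. The cause was not tested. Members outside the selection turned sign too. For diet in sham hearts, members with a negative log2 fold change numbered 12 as deposited and 6 with GC correction. Members with a negative log2 fold change numbered 36 to 39 over all settings for TAC under SFA and 30 to 38 under SFA-EAA. The share of called genes that were higher was 66.8% for TAC under SFA (50.8% with GC correction) and 65.4% for TAC over both diets (51.9%). For diet in TAC hearts it was 25% of only 8 called genes (54.3% of 328 with GC correction). For diet over both operations it was 40.2% (61.1% with GC correction). Median-of-ratios scaling gave 50.5% there, and quantile normalization 21.4% of 42 called genes. With 2 libraries a group and no read counts, the precision of single values is limited.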

Other observations

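Among the pathway genes outside the 40 members, Plin4, a lipid droplet protein, had 735 and 642 in TAC SFA-EAA hearts, against 966 and 973 in sham SFA-EAA hearts, and 821 and 785 in TAC SFA hearts, against 707 and 725 in sham SFA hearts. Its interaction was -0.66 on the log2 scale, with a limma adjusted p of 0.785 and an unadjusted p of 0.00222. The uncoupling protein Ucp2 had 205 and 163 in TAC SFA-EAA hearts and 201 and 208 in sham SFA-EAA hearts, against 421 and 303 in TAC SFA hearts and 336 and 222 in sham SFA hearts, with a diet log2 fold change of -0.69 and an adjusted p of 0.0666.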
